A study of Mus musculus with 4 samples.

Results

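P2ry12 and 9 other genes that sense or break down extracellular purines were examined in CD11b+ microglia, the phagocytes that reside in brain tissue. The 10 genes were chosen by their role as nucleotide receptors, adenosine receptors or ectonucleotidases of microglia, and each was found by its symbol among the 49993 genes that have a count. All 10 passed the filter on low counts that left 21439 genes for testing. They comprise the P2Y receptors P2ry12, P2ry13, P2ry6 and P2ry14, the P2X channels P2rx7 and P2rx4, the ectonucleotidases Entpd1 and Nt5e, and the adenosine receptors Adora3 and Adora2a.

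The cells were taken by magnetic sorting from the brains of 10-month-old mice, and ribosomal RNA was removed before stranded bulk RNA-seq. Both groups carried APP/PS1, transgenes that make amyloid build up in the brain as in Alzheimer's disease. In one group asrij, the gene Ociad1, was intact (APP/PS1+ asrij+/+, AD, n = 2 libraries), and in the other it was deleted constitutively, in every tissue and not only in microglia (APP/PS1+ asrij-/-, AD/KO, n = 2 libraries). No group without APP/PS1 was analysed here, so that amyloid is common to all the libraries. Whether a library came from 1 mouse or from a pool is not given in the sources used here, and p-values measure only the spread between these libraries.

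Extracellular ATP and ADP leak from injured or active cells and act on microglia as danger and guidance signals. P2Y receptors couple to G proteins, P2X receptors are ATP-gated cation channels, and ectonucleotidases on the cell surface convert ATP and ADP to AMP and then to adenosine, which acts on its own receptors. P2RY12 is the ADP receptor that steers microglial processes toward injury, and it is widely used as a marker of the resting, homeostatic state, because it declines when microglia become activated near plaques.

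Before the results, the libraries have to be described. They held from 13102622 to 19810076 counts. Ociad1 was counted 691 and 1032 times in AD and 746 and 592 times in AD/KO, or 50.2, 63.4, 38.9 and 32.1 CPM (counts scaled to library size after TMM, the trimmed mean of M values). On the CPM scale the labels did not overlap and AD/KO was the lower, though reads of the gene remained. Labels did not overlap for 42.0% of all genes tested. The log2 fold change of Ociad1 was −0.68 (SE 0.29; Benjamini-Hochberg adjusted p = 0.680, edgeR). As a percentage of the geometric mean of the microglia markers Ociad1 was at 5.38% and 9.34% in AD and 4.16% and 11.1% in AD/KO, with overlap. Which exons the deletion removes is not given in the sources used here, so that any direction given is one between labels. Defining microglial markers were abundant in all 4 libraries, with Cx3cr1 between 962 and 3107 CPM. AD/KO replicate 2 stood apart. The geometric mean of 20 microglia markers, a list that holds none of the purinergic genes, was 933 and 679 CPM in AD replicates 1 and 2, 935 CPM in AD/KO replicate 1 and 291 CPM in AD/KO replicate 2. The summed level of 9 astrocyte markers ran the other way, at 1878, 4415, 4588 and 11740 CPM in the same order, and that of 10 neuron markers was 464, 1442, 1198 and 3623 CPM. AD replicate 2 had the highest level of 9 neutrophil markers, 4520 CPM against 336 to 529 CPM in the others. Summed markers of other macrophage-lineage cells were lower in both AD/KO libraries. The 6 monocyte markers summed to 182 and 277 CPM in AD and 66.8 and 102 CPM in AD/KO. The 6 border macrophage markers summed to 129 and 98.4 CPM in AD and 66.9 and 58.3 CPM in AD/KO. All 6 monocyte markers had a log2 fold change below 0. Of the border macrophage markers 5 were below 0 and 1 above. By edgeR 0 of these 12 genes passed the threshold, as did 0 (0%) of all 21439 genes tested, and the part of these cells in the results was not tested. In bulk RNA, fewer cells of a type and less RNA per cell cannot be told apart.

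P2ry12, P2ry13 and P2ry14 lie side by side on chromosome 3, all on the minus strand and within Med12l, which is transcribed from the other strand and shares 9 exonic bases with P2ry12 and 0 with the other 2. P2ry12 (gene ID 70839) spans 59216271 to 59262985, P2ry13 (gene ID 74191) 59207892 to 59210882, and P2ry14 (gene ID 140795) 59114623 to 59153492 (RefSeq, GRCm38.p6). Med12l had 3938 and 3151 reads in AD and 4379 and 3222 in AD/KO, and whether reads were counted by strand is not given in the sources used here. Their promoters are shown because P2ry14 differed from its neighbours P2ry12 and P2ry13 in level and in its profile over the libraries, described further on, while P2ry12 and P2ry13 had like profiles. Each window runs from 250 bases before to 50 bases after the RefSeq start on the gene's strand, 5′ to 3′, and capitals mark matches to GAGGAA (the PU box) and AGGAAG (an ETS-type core), which share 5 letters and may overlap.
P2ry12, chr3:59262936-59263235: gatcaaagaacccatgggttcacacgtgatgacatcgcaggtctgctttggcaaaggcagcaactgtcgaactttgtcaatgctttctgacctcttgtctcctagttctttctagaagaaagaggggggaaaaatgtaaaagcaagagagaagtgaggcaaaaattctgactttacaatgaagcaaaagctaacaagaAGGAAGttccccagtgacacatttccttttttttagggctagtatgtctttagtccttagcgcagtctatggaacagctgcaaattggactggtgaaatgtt
P2ry13, chr3:59210833-59211132: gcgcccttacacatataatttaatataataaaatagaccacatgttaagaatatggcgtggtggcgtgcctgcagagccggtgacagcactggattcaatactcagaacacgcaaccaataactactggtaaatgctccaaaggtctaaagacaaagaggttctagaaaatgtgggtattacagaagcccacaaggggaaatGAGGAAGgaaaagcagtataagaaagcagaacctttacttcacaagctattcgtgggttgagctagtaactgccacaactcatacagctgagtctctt
P2ry14, chr3:59153443-59153742: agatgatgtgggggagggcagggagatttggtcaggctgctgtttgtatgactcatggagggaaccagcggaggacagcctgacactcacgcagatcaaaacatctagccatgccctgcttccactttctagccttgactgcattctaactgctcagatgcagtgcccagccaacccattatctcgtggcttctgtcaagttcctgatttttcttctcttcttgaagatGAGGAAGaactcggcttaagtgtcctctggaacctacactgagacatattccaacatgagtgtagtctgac

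Both strands were searched. AGGAAG began 52 bases before the start of P2ry12, 47 bases before that of P2ry13 and 20 bases before that of P2ry14, in each case on the gene's own strand. A window of this length holds AGGAAG on either strand in 35.4% of 32851 RefSeq promoters. GAGGAA matched in P2ry13 and P2ry14, and in 28.3% of all promoters. The P2ry14 window also held TGACTCA, the AP-1 site, 202 bases before the start, which 5.20% of all promoters hold. The matches are a description of the letters and not evidence of binding. RefSeq listed 3 further starts of P2ry14, and 8 of the 10 genes had a promoter entry.

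The ADP receptors P2ry12 and P2ry13 were the most abundant members. P2ry12 had 18414 and 16868 reads in AD replicates 1 and 2 and 25376 and 6418 reads in AD/KO replicates 1 and 2. Scaled to library size, its level was 1337 and 1037 CPM in AD and 1323 and 348 CPM in AD/KO. AD/KO replicate 1 thus lay between the AD libraries, and only AD/KO replicate 2 was low, so that the groups overlapped. Group means were 1187 ± 212 CPM in AD and 836 ± 689 CPM in AD/KO (SD, n = 2 each). Their log2 fold change, AD/KO against AD, was −0.51 (SE 0.77), which was within the spread of the replicates (Benjamini-Hochberg adjusted p = 0.801 by the quasi-likelihood F-test of edgeR, against a threshold of 0.05). The direction turned, to 0.17, when AD/KO replicate 2 was left out, and the value was −1.72 when AD/KO replicate 1 was.

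P2ry13, a second receptor for ADP, showed the same order of libraries apart from the top place. Its reads numbered 8278 and 7464 in AD and 13197 and 3235 in AD/KO, or 601, 459, 688 and 176 CPM. AD/KO replicate 1 was the highest of all and AD/KO replicate 2 the lowest, and the log2 fold change was −0.30 (SE 0.73; Benjamini-Hochberg adjusted p = 0.877, edgeR). Leaving out AD/KO replicate 2 gave 0.39, and leaving out AD/KO replicate 1 gave −1.54.

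P2ry6 (gene ID 233571, chromosome 7, 100937630 to 100975498) encodes the receptor for UDP that has been linked to phagocytosis by microglia. It stood at 149 and 86.2 CPM in AD and at 141 and 37.6 CPM in AD/KO, from 2058, 1402, 2704 and 692 reads. Again AD/KO replicate 1 lay within the range of the AD libraries, and AD/KO against AD gave a log2 fold change of −0.40 (SE 0.70; Benjamini-Hochberg adjusted p = 0.828, edgeR). Leaving out AD/KO replicate 2 turned it to 0.27, and leaving out AD replicate 1 to 0.051.

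P2ry14, the receptor for UDP-glucose and related sugars, was scarce. It had 8 and 68 reads in AD and 47 and 82 in AD/KO. The corresponding levels were 0.581, 4.18, 2.45 and 4.45 CPM. The AD libraries alone spanned almost the whole range, and the 8 reads of AD replicate 1 allow 0.251 to 1.14 CPM (95% Clopper-Pearson interval, counting error only). The log2 fold change was 0.53 (SE 0.99; Benjamini-Hochberg adjusted p = 0.840, edgeR). It was −0.29 without AD replicate 1 and 2.61 without AD replicate 2, the library with the highest neutrophil markers, whose part in this difference was not tested.

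**Figure D1:**
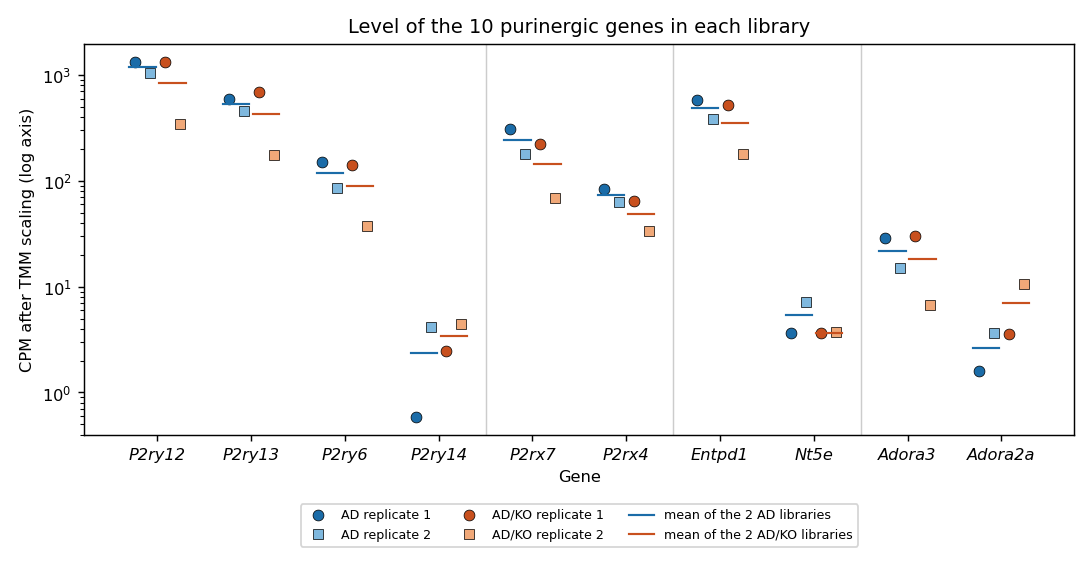
Level of each of the 10 genes in each of the 4 libraries, in CPM after TMM scaling on a log axis, with horizontal lines at the mean of the 2 libraries of a label. For P2ry12, P2ry13, P2ry6, P2rx7, P2rx4, Entpd1 and Adora3 the lowest of the 4 points is AD/KO replicate 2, while AD/KO replicate 1 lies within or above the AD libraries.

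The ATP-gated channels P2rx7 and P2rx4 are neighbours on the plus strand of chromosome 5 (P2rx7, gene ID 18439, 122643927 to 122692336, and P2rx4, gene ID 18438, 122707518 to 122729739), the chromosome that also carries Ociad1. P2rx7 opens at high ATP and drives potassium efflux and inflammasome activation. It had 4241 and 2915 reads in AD and 4239 and 1263 in AD/KO, or 308, 179, 221 and 68.5 CPM. AD/KO replicate 1 lay between the AD libraries, and the log2 fold change was −0.75 (SE 0.66; Benjamini-Hochberg adjusted p = 0.704, edgeR). It kept its sign whichever library was left out, from −1.78 with AD/KO replicate 1 left out to −0.13 with AD/KO replicate 2 left out.

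P2rx4, a channel that responds to lower ATP and has been studied in microglia after nerve injury, was at 83.8 and 62.8 CPM in AD and 64.3 and 33.3 CPM in AD/KO, from 1154, 1021, 1234 and 614 reads. Its 2 highest libraries were thus 1 of each label, with a log2 fold change of −0.59 (SE 0.42; Benjamini-Hochberg adjusted p = 0.682, edgeR). The range with a library left out ran from −1.08 without AD/KO replicate 1 to −0.18 without AD/KO replicate 2. Within a library, where scaling cancels, there were 3.68 and 2.86 reads of P2rx7 per read of P2rx4 in AD and 3.44 and 2.06 in AD/KO. The labels overlapped in this ratio.

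The ectonucleotidases stood far apart in level. Entpd1 (CD39; gene ID 12495, chromosome 19, 40612366 to 40741602) hydrolyses ATP and ADP to AMP. It had 8039 and 6297 reads in AD and 10100 and 3286 in AD/KO, or 583, 387, 527 and 178 CPM. AD/KO replicate 1 was between the AD libraries, and the log2 fold change was −0.46 (SE 0.64; Benjamini-Hochberg adjusted p = 0.786, edgeR). It turned to 0.13 without AD/KO replicate 2 and was −1.39 without AD/KO replicate 1. Nt5e (CD73; gene ID 23959, chromosome 9, 88327609 to 88372089) forms adenosine from AMP. It had 50 and 116 reads in AD and 70 and 68 in AD/KO, or 3.63, 7.13, 3.65 and 3.69 CPM. AD replicate 2 was the only library that differed from the rest beyond counting error, with a 95% Clopper-Pearson interval of 5.89 to 8.55 CPM against 2.69 to 4.78 CPM in AD replicate 1. The log2 fold change of −0.55 (SE 0.54; Benjamini-Hochberg adjusted p = 0.722, edgeR) became 0.080 without AD replicate 2. Reads of Entpd1 per read of Nt5e numbered 161 and 54.3 in AD and 144 and 48.3 in AD/KO, lower in replicate 2 of both labels.

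Adora3 and Adora2a encode adenosine receptors that act in opposite directions on cyclic AMP, the former lowering and the latter raising it. Adora3 (gene ID 11542, chromosome 3, 105904421 to 105908928) had 396 and 246 reads in AD and 576 and 124 in AD/KO, or 28.7, 15.1, 30.0 and 6.73 CPM. The highest and the lowest library were both AD/KO. The log2 fold change was −0.25 (SE 0.78; Benjamini-Hochberg adjusted p = 0.901, edgeR), and it moved to 0.46 with AD/KO replicate 2 left out, 0.28 with AD replicate 1 left out and −1.65 with AD/KO replicate 1 left out. Its exons overlap those of Tmigd3 on the same strand over 779 bases (20.9% of the exonic length of Adora3), and Tmigd3 had 365, 179, 401 and 99 reads, so that the split of reads between the pair is uncertain.

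Adora2a (gene ID 11540, chromosome 10, 75316877 to 75334792), best known from neurons of the striatum, was the member with the largest difference. It had 22 and 60 reads in AD and 68 and 195 in AD/KO, or 1.60, 3.69, 3.55 and 10.6 CPM. AD/KO replicate 1 was still just under AD replicate 2, so that the labels overlapped. The log2 fold change was 1.41 (SE 0.77; Benjamini-Hochberg adjusted p = 0.680, edgeR), and it ranged from 0.43 with AD/KO replicate 2 left out to 2.20 with AD replicate 2 left out. The 6 striatal neuron markers were at 32.2, 124, 125 and 351 CPM in sum, in the order AD replicates 1 and 2 and AD/KO replicates 1 and 2. Drd2, the dopamine receptor of the striatal neurons that also carry the Adora2a receptor, was at 1.52, 2.83, 4.85 and 13.9 CPM. None of the 6 was at 0 in any library, and all 6 had a positive log2 fold change (median 1.62). So did all 10 neuron markers (median 1.45) and all 9 astrocyte markers (median 1.40). The part of these cells in the Adora2a difference was not tested.

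Over the 10 genes, 8 had a log2 fold change below 0 and 2 (P2ry14 and Adora2a) above 0, where 52.8% of all genes tested were below 0 and 47.2% above. The median was −0.43, against −0.048 over all genes tested. The 20 microglia markers were much the same, with 17 lower, 3 higher and a median of −0.37. By edgeR's quasi-likelihood test, 0 of the 10 had an adjusted p under 0.05, as did 0 (0%) of all 21439 genes, and 0 of the 10 had an unadjusted p under 0.05, against 5.0% of all genes. DESeq2 also called 0 of the 10 (0.420% of all genes). With the replicate number as a block, which leaves 1 residual degree of freedom, edgeR called 2 of the 10, P2rx7 and Adora2a, and 20.2% of all genes. In 0 of the 10 genes did the libraries of one label lie wholly above or below those of the other, although this was so for 42.0% of all genes tested. Of the 8, P2ry12, P2ry13, P2ry6, Entpd1 and Adora3 turned to higher when AD/KO replicate 2 was left out, while P2rx7 (−0.13), P2rx4 (−0.18) and Nt5e (−0.55) stayed lower. Without that library 3 of the 10 were thus lower and 7 higher (median 0.15), and without AD/KO replicate 1 the median was −1.47 with 8 lower. Without AD replicate 1 it was −0.21 with 7 lower.

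The levels of 7 of these genes ran close to those of the microglia markers from library to library. For each gene, log2(CPM + 1) was centred on its mean over the 4 libraries, and the root mean square distance to the mean profile of the 20 microglia markers was taken. The distance was 0.066 for Entpd1, 0.10 for P2ry13, 0.13 for P2ry12, 0.14 for P2ry6, 0.19 for P2rx7, 0.20 for Adora3 and 0.27 for P2rx4. Of all genes tested, 0.0886% were as near to that profile as Entpd1, 0.849% as near as P2ry12 and 6.37% as near as P2rx4. Nt5e (0.76), P2ry14 (1.28) and Adora2a (1.43) were far from it. Adora2a and P2ry14 were nearer to the mean profile of the neuron and astrocyte markers, at 0.24 and 0.47. These distances rest on 4 libraries and describe them without a test.

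**Figure D2:**
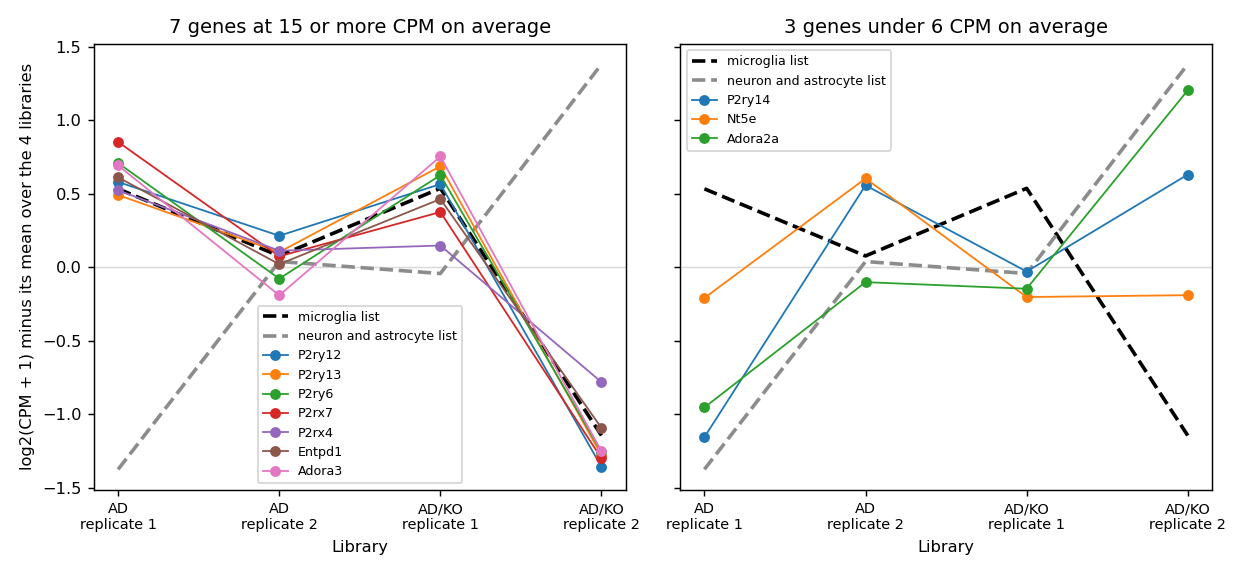
Profiles over the 4 libraries, as log2(CPM + 1) minus its mean over the libraries, for the 7 genes with a mean over the 4 libraries above 15 CPM (left) and the 3 with a mean under 6 CPM (right); lines join the values of 1 gene, and dashed lines are the means of the 20 microglia markers and of the neuron and astrocyte markers. The 7 genes run with the microglia markers and drop in AD/KO replicate 2, whereas Adora2a runs with the neuron and astrocyte markers.

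By the same distance, the protein-coding genes with the profile most like that of P2ry12 were Trem2 (0.015), Cd300c2 (0.019), Syngr2 (0.054), Sgsh (0.063) and Gpr84 (0.064), out of 10256 with a mean of at least 10 CPM. Trem2, the myeloid receptor for lipids and apolipoproteins and itself one of the microglia markers used here, was at 426 and 332 CPM in AD and 425 and 109 CPM in AD/KO. P2ry13 came 22nd in that ranking (0.10), P2ry6 123rd, Entpd1 131st, P2rx7 161st, Adora3 337th and P2rx4 880th.

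Expressing each gene as a percentage of the geometric mean of the 20 microglia markers in the same library brought AD/KO replicate 2 close to the other libraries for most of the 7 genes. P2ry12 was then at 143% and 153% in AD and 142% and 120% in AD/KO. P2ry13 was at 64.4%, 67.5%, 73.6% and 60.4%, and P2ry6 at 16%, 12.7%, 15.1% and 12.9%. Entpd1 was the steadiest, at 62.6%, 57.0%, 56.3% and 61.4%. P2rx7 was at 33.0% and 26.4% in AD and at 23.6% in both AD/KO libraries. P2rx4 was at 8.98%, 9.24%, 6.88% and 11.5%, and Adora3 at 3.08%, 2.23%, 3.21% and 2.32%. On this scale 2 of the 10 genes, P2ry12 and P2rx7, were lower in each AD/KO library than in either AD library. Of all genes tested, 7.94% were lower without overlap and 16.8% did not overlap in either direction. The scale itself moved most genes upward in AD/KO. With this scaling in edgeR, 4352 of 21439 genes tested and 4 of the 10 members had a log2 fold change below 0. For P2ry12 the gap between AD replicate 1 and AD/KO replicate 1 was small, from 143% to 142%.

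Used as the scaling in the edgeR fit, the microglia list shifted all genes upward, their median by 0.78 on the log2 scale. The log2 fold changes were then −0.18 (SE 0.87) for P2ry12, 0.022 (SE 0.90) for P2ry13, −0.035 (SE 0.92) for P2ry6, −0.33 (SE 0.92) for P2rx7, 0.010 (SE 0.93) for P2rx4, −0.022 (SE 0.90) for Entpd1 and 0.060 (SE 0.94) for Adora3. All 7 lay below the median of all genes, which was then 0.74. Adora2a stood at 2.49 (SE 1.25), P2ry14 at 1.39 (SE 1.27) and Nt5e at 0.20 (SE 1.06). With the mean level of the neuron and astrocyte markers as a covariate in place of that scaling, Adora2a had a log2 fold change of 0.022 (SE 0.47), P2ry12 of 0.29 (SE 0.48) and P2rx7 of 0.23 (SE 0.32). By edgeR, 0 of the 10 genes passed in either fit (0.0280% of all genes passed in the covariate fit, and 0% in the other).

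**Figure D3:**
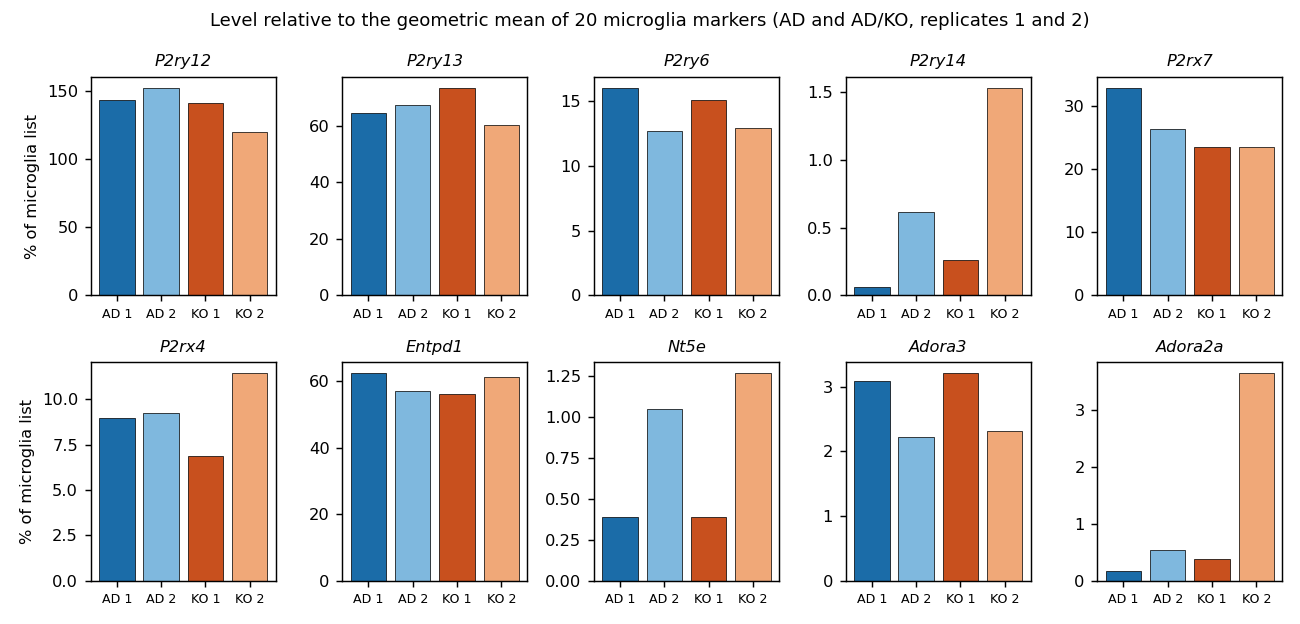
Level of each gene in each library as a percentage of the geometric mean of the 20 microglia markers (bars start at 0; AD 1 and AD 2 are AD replicates 1 and 2, KO 1 and KO 2 are AD/KO replicates 1 and 2). P2ry13, P2ry6 and Entpd1 are close to level over the libraries. P2rx7 and P2ry12 are lower in both AD/KO libraries, P2ry12 by little in AD/KO replicate 1. P2ry14, Adora2a, P2rx4 and Nt5e are highest in AD/KO replicate 2.

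Ratios between genes counted in the same library do not depend on scaling, and 11 were computed. There were 2.22 and 2.26 reads of P2ry12 per read of P2ry13 in AD (95% Clopper-Pearson intervals 2.17 to 2.28 and 2.20 to 2.32) and 1.92 and 1.98 in AD/KO (1.88 to 1.96 and 1.90 to 2.07). The mean ratio was 1.95 ± 0.0432 in AD/KO and 2.24 ± 0.0251 in AD (SD, n = 2 each), or 87.1% of the AD value, and the labels did not overlap. P2ry12 per read of Tmem119, another marker of homeostatic microglia, was 1.16 and 1.48 in AD and 0.851 and 0.863 in AD/KO, and these labels did not overlap either. Tmem119 was unlike most of the 20 microglia markers. Its log2 fold change was 0.076 (SE 0.79), and it was 1 of 3 above 0, where 17 were lower. P2ry12 per read of Cx3cr1, the fractalkine receptor, was 0.430, 0.459, 0.437 and 0.362, with overlap. These were the only 2 of the 11 ratios without overlap, each with a two-sided exact permutation p of 0.333, the smallest that 2 libraries against 2 can give. A ratio unrelated to the labels would be without overlap at that rate, so that 2 of 11 does not mark out these ratios. Of all genes tested, 42.0% did not overlap on the CPM scale and 16.8% relative to the microglia list. Reads of Entpd1 per read of P2ry12 were 0.437, 0.373, 0.398 and 0.512, and those of P2rx7 per read of P2ry12 were 0.230, 0.173, 0.167 and 0.197.

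**Figure D4:**
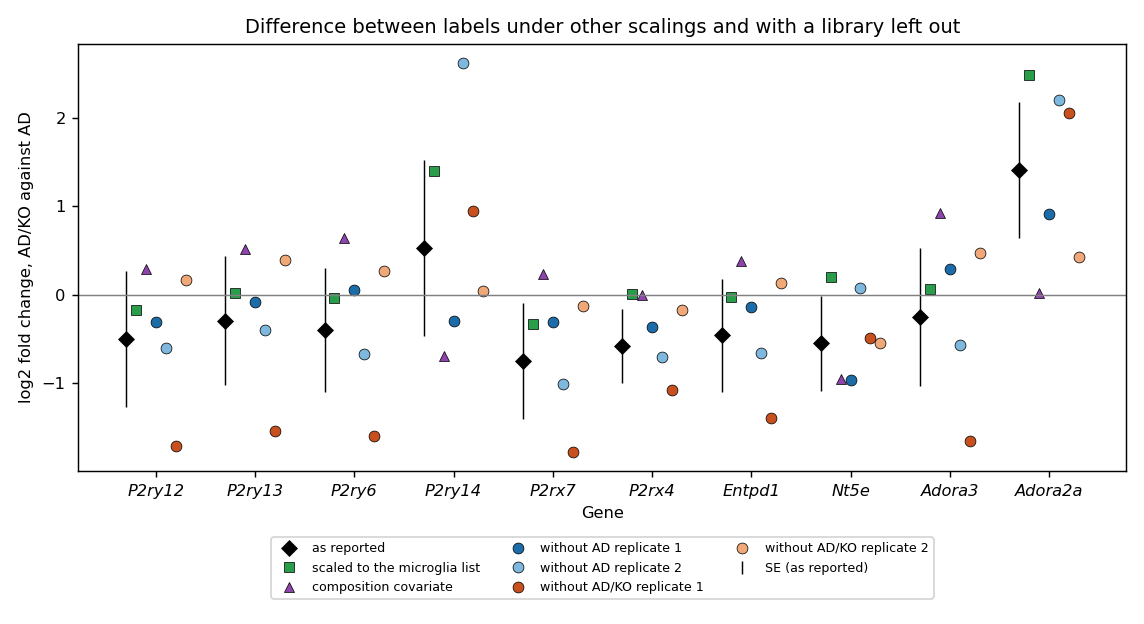
Log2 fold change of AD/KO against AD for each gene as reported (diamonds, with SE), with scaling to the microglia list, with the neuron and astrocyte covariate, and with each library left out. The 7 genes that follow the microglia markers lie lowest without AD/KO replicate 1 and between −0.33 and 0.060 with scaling to the microglia list, and Adora2a stays above 0 throughout.

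To set the levels of the 10 genes against each other, CPM was divided by exonic length in kilobases (GENCODE M21). In AD replicate 1, P2ry12 was at 525, P2ry13 at 238, Entpd1 at 105, P2ry6 at 51.7, P2rx7 at 51.6, P2rx4 at 11.9, Adora3 at 7.71, Adora2a at 0.521, Nt5e at 0.422 and P2ry14 at 0.0525 CPM per kilobase. The upper 3 kept this order in all 4 libraries, and P2rx4 came below P2ry6 and P2rx7 in each. P2ry6 and P2rx7 were close in both AD libraries, at 29.8 and 30.0 in AD replicate 2. P2ry6 was the higher in AD/KO, at 48.8 against 37.0 in replicate 1 and 13 against 11.5 in replicate 2. This difference was not tested, and the pair was not among the 11 ratios counted above. Adora3 came next except in AD/KO replicate 2, where Adora2a, at 3.46, stood above it, at 1.80. A gene's union of exons can be longer than its transcripts in microglia, as for the 11.1 kilobases of P2ry14, whose value per kilobase is then too low.

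Of 37 other genes of purine signalling, 31 passed the filter on low counts. By edgeR's quasi-likelihood test 0 of these passed the threshold with Benjamini-Hochberg adjustment, 17 had a higher and 14 a lower log2 fold change in AD/KO, and the median was 0.015. Their libraries did not overlap between labels in 16 of 31, where the share over all genes tested was 42.0%. The 1 of the 31 with an unadjusted p under 0.05 (5.0% of all genes tested) was Entpd2, an ectonucleotidase known from astrocytes and neural stem cells that prefers ATP. Its level was 1.81 and 3.44 CPM in AD and 5.06 and 13.6 CPM in AD/KO, which gave a log2 fold change of 1.82 (SE 0.69; Benjamini-Hochberg adjusted p = 0.680, edgeR). Its order of libraries was that of the astrocyte markers, whose part was not tested, and with the neuron and astrocyte covariate its log2 fold change was 0.61 (SE 0.45).

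Among the other receptors, Gpr34, a lysophosphatidylserine receptor related to the P2Y family and abundant in microglia, was at 506 and 418.2 CPM in AD and 417.6 and 109 CPM in AD/KO, which gave a log2 fold change of −0.81 (SE 0.70). Relative to the microglia markers it was at 54.2% and 61.6% in AD and 44.7% and 37.5% in AD/KO. Adora1, an adenosine receptor abundant in neurons, was at 19.96, 49.7, 43.2 and 121 CPM, a log2 fold change of 1.24 (SE 0.68). P2ry4, P2ry10 and P2rx2 had at most 9 reads in a library and were not tested. Adora2b, with 19 to 38 reads a library, and P2rx6, with 14 to 67, were scarce.

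Slc29a3, a nucleoside transporter of lysosomes, was at 552 and 300.4 CPM in AD and 493 and 152 CPM in AD/KO (log2 fold change −0.40, SE 0.70). Slc29a1, the nucleoside transporter of the plasma membrane, was at 70.0, 51.1, 80.8 and 41.6 CPM (0.015, SE 0.42). Gnai2, a subunit of the inhibitory G proteins that P2RY12 couples to, was at 373, 346, 388 and 279 CPM (−0.11, SE 0.38). Gnaq, a subunit that P2RY6 signals through, was at 182, 160, 167 and 173 CPM (−0.010, SE 0.30). None of these 6 named transporters, receptors and G protein subunits passed the threshold in the edgeR fit (adjusted p from 0.680 to 0.990, Benjamini-Hochberg). Entpd4 had 1 read in 1 library and 0 in the others, but its transcript is identical to that of Entpd4b over 3589 bases, so that its count is uncertain.

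**Figure D5:**
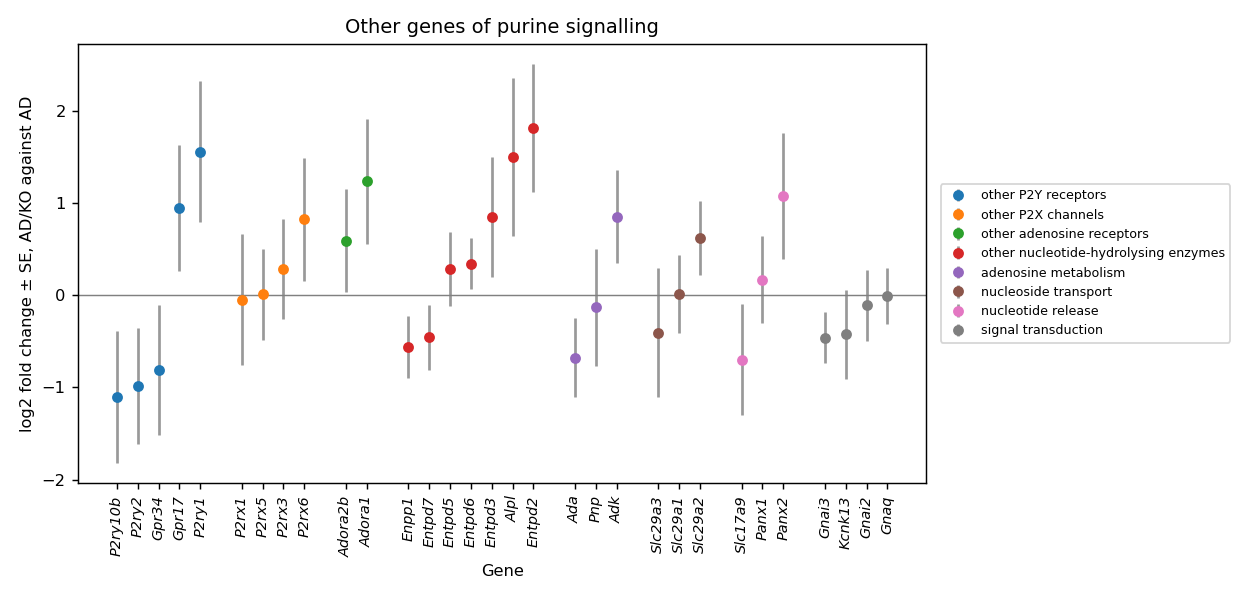
Log2 fold change of AD/KO against AD with its SE for the 31 other purine signalling genes that were tested, grouped by role and ordered within a role. P2ry10b, P2ry2 and Gpr34 lie lowest and Entpd2, P2ry1 and Alpl highest, with standard errors of 0.28 to 0.86.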

How the data were processed

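Gene expression was measured by stranded, rRNA-depleted bulk RNA-seq in 2 AD and 2 AD/KO libraries. The authors deposited 1 table of raw read counts per gene symbol and library; the submitters' processing notes name HISAT2, SAMtools, featureCounts, Subread, DESeq2 1.30.0 and mm10. The use of strand, the treatment of reads with several matches and the annotation are not given in the sources used here. Broken lines (11 per table) held no count, which left out 4 genes, none of them a member. All 49993 symbols matched RefSeq for GRCm38.p6.

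Counts were tested with edgeR 4.0.16 in R 4.3.3: filterByExpr (minimum count 10, minimum total 15), TMM, and a two-sided quasi-likelihood F-test with label as the only term, with Benjamini-Hochberg adjustment over all genes tested at 0.05. The SE is the log2 fold change divided by the square root of F. Levels are CPM after TMM. Intervals are 95% Clopper-Pearson and cover counting error only, since reads carry no molecular identifiers. Simulated on the real comparison with 200 of 20766 genes changed by 3 on the log2 scale, the test called 62.0% of them, and 3.12% of its 128 calls were false. The changed genes were drawn above a minimum mean level that P2ry14, Nt5e and Adora2a did not reach. Noise was drawn independently for each library, without a shared shift in cell composition. No change as small as those of the members was simulated, so the power for them is not known.

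The members, the 37 pathway genes, the marker lists and the ratios were chosen with earlier results of these data known. All members were named; pathway genes were named at an unadjusted p under 0.05, among the 6 highest by CPM, or to show scarce receptors, and Entpd4 after its values were seen. Alternatives were DESeq2 1.42.0, its size factors, other filters, the replicate block, scaling to the microglia list, the neuron and astrocyte covariate and leaving out each library. The fit with edgeR's legacy=FALSE was added after the data were seen. BLAST at 95% identity over 100 bases found Tmigd3 for Adora3, Mir8115 for P2rx7, 3 short matches for P2rx4, and no match for the other 7 members.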

Additional observations from a re-analysis of the deposited data

How the results depend on the processing

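Of 120 log2 fold changes of the 10 genes under alternatives, 98 kept their direction and their side of the threshold, 2 passed it and 20 changed direction. With the neuron and astrocyte covariate, which leaves 1 residual degree of freedom, 7 changed direction: P2ry12 (0.29), P2ry13 (0.52), P2ry6 (0.64), P2rx7 (0.23), Entpd1 (0.38), Adora3 (0.92) and P2ry14 (−0.70). With scaling to the microglia list 4 did: P2ry13 (0.022), P2rx4 (0.0098), Nt5e (0.20) and Adora3 (0.060). With 1 library left out the values ran from −1.72 to 0.17 for P2ry12, −1.54 to 0.39 for P2ry13, −1.60 to 0.27 for P2ry6, −0.29 to 2.61 for P2ry14, −1.08 to −0.18 for P2rx4, −1.78 to −0.13 for P2rx7, −1.39 to 0.13 for Entpd1, −0.97 to 0.080 for Nt5e, −1.65 to 0.46 for Adora3 and 0.43 to 2.20 for Adora2a. A label with 1 library is then assumed to vary like the other.

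The number of all genes called was 0 in edgeR (1072 with an unadjusted p below 0.05), 90 with DESeq2, 6 with the covariate, and 0 to 524 with a library left out, the highest without AD replicate 2 and 48 without AD replicate 1; the cause was not tested. The same replicate numbers occur in both labels, but nothing says that they mark a shared litter, batch or day. Deviations of same-numbered libraries correlated across genes at 0.74. In both labels replicate 2 was lower than replicate 1 in the microglia markers and higher in the neuron and astrocyte markers. The part of this in the correlation and in the block fit was not tested. With the replicate number as a block, a fit that also leaves 1 residual degree of freedom, edgeR called 4333 genes (20.2%). Among them were 6 of the pathway genes and 2 of the 10 members, P2rx7 (−0.93, adjusted p of 0.0426) and Adora2a (1.35, adjusted p of 0.0338). In the other fits these 2 genes had adjusted p of 0.263 or more. Low counts limit P2ry14, Nt5e and Adora2a most. With 2 libraries per label, no exact permutation test can reach 0.05.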
